A study of Mus musculus with 14 samples.

Results

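The genes described here make, and recover the vitamin part of, coenzyme A (CoA). They are Slc5a6, Pank1, Pank2, Pank3, Pank4, Ppcs, Ppcdc, Coasy, Vnn1 and Vnn3, which are 10 of the 24972 genes in the deposited table. They were taken by symbol and not by their values. All 10 passed the limit for testing, a mean of at least 10 normalized counts over the libraries, which 12711 genes passed.

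CoA is the thiol carrier of acetyl and longer acyl groups. Cells build it from pantothenate (vitamin B5), cysteine and ATP: SLC5A6 carries pantothenate into the cell, the pantothenate kinases PANK1, PANK2 and PANK3 phosphorylate it in the step that limits the rate and that CoA and its thioesters inhibit, and PPCS, PPCDC and COASY complete the molecule. Vanins such as VNN1 and VNN3 work in the other direction, splitting pantetheine, a breakdown product of CoA, into pantothenate and cysteamine. The enzymes removed in these cells, ATP-citrate lyase (ACLY) and the acetyl-CoA synthetase ACSS2, both consume free CoA when they form acetyl-CoA outside the mitochondria, the former from citrate and the latter from acetate.

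Poly(A) RNA was measured in mouse hepatocellular carcinoma (HCC) cells that were kept for 24 hours in DMEM with 10% calf serum. There were 4 libraries of wild-type (WT) cells, 4 of ACLY knockout (KO) cells, 3 of ACSS2 KO cells and 3 of DKO1, a line without either enzyme whose libraries are numbered 1, 3 and 4. All lines descend from tumors that diethylnitrosamine raised in Acly f/f mice, so WT cells carry the floxed allele intact. ACLY KO cells were made with adenoviral Cre and cloned from a single cell. Every line then received the LentiCRISPR v2 vector and puromycin. In WT and ACLY KO the vector was empty and the selected cells stayed a bulk population, whereas ACSS2 KO and DKO1 received a guide against the first exon of Acss2 and each is 1 single-cell clone, DKO1 being derived from ACLY KO cells. Genotype and clone therefore cannot be told apart. By the study's methods the sequencing was done in 1 experiment, so p-values measure the spread between these libraries, which may be technical.

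Acly lay between 931 and 1084 normalized counts in the 7 libraries without ACLY, and between 5461 and 6435 in the others. Acss2 lay between 127 and 135 in ACSS2 KO, 224 and 252 in WT, 455 and 578 in DKO1, and 660.4 and 787 in ACLY KO. It was thus lower in DKO1 than in its parent line but higher than in WT, and since the guide cuts within the gene without removing it, transcript level is no measure of the knockout. Library totals were between 23565707 and 26946164 normalized counts, with an implied depth of 19169815 to 33531545 reads. That depth is a rough estimate. Only 15.6 to 40.3% of low values lay near a whole multiple of what 1 read was taken to be worth. Of 12 hepatocyte markers 7 reached a mean of 10. Their sum, 26729 to 65118, was mostly the keratins Krt8 and Krt18, while Apoa1 and Serpina1a were near 0 in each library. Among the 7, Tat was higher in DKO1 than in WT (log2 3.53, limma adjusted p = 2.5e-08), as was Vnn1. Afp (2.41) and Apob (1.16) were also higher there, while Krt8 (-0.56), Krt18 (-0.92), Alb (-1.46) and Hnf4a (-2.90) were lower. Apob had 386.5, 366.0 and 94.3 normalized counts in DKO1 replicates 1, 3 and 4 and 55.4 to 138.3 in WT, so these groups overlapped. Alb was higher in ACSS2 KO than in WT (2.06, adjusted p = 1.4e-05), as was Vnn3. Apob (-1.79) and Hnf4a (-2.10) were lower there, and Afp, Tat, Krt8 and Krt18 were not called. Hnf4a was lower in ACLY KO too (-2.59). The sum of the 4 cholangiocyte markers was 21647 to 31968.5 in WT, 8608 to 9374 in ACLY KO, 18274 to 20515.5 in ACSS2 KO and 11194.5 to 18276 in DKO1. The part of these markers in the results was not tested. The sum of the 5 fibroblast markers was lowest in WT (608 to 716) and highest in ACLY KO (2915 to 3283), with ACSS2 KO at 1422 to 1464 and DKO1 at 1162 to 1422, and their part in the results was not tested. In DKO1 replicate 4, WT replicate 2, ACLY KO replicate 4 and ACSS2 KO replicate 1, values fell with transcript length relative to the other libraries of the genotype (Spearman's rho across 12577 genes of -0.69, -0.60, -0.59 and -0.54). For the members, the main results that turn on these libraries are therefore given with and without them. For single marker and list genes only the fit to all libraries is given.

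The 3 active kinase genes each hold a microRNA in an intron, on the strand of the host gene. Pank1 holds Mir107 (GRCm38 chr19:34820687-34820773), Pank2 holds Mir103-2 (chr2:131288052-131288137) and Pank3 holds Mir103-1 (chr11:35782396-35782481). Their mature sequences, from RefSeq, are shown because the fitted values of the kinase genes differed in sign in DKO1 against WT, while the microRNAs within them are nearly alike. The negative value was that of Pank1, and it was -0.03 and not called once the trend with transcript length was removed. Capitals mark the seed, bases 2 to 8 from the 5′ end.
mmu-miR-107-3p: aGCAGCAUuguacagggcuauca
mmu-miR-103-3p: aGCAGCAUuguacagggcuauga
mmu-miR-107-5p: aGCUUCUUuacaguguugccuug
mmu-miR-103-2-5p: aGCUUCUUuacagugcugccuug
mmu-miR-103-1-5p: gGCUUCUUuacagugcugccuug
Pank2 and Pank3 encode the same 3′ arm, and the arm from Pank1 differs from it by 1 base (G22C, miR-103 base first, counted from the 5′ end), outside the seed. The 5′ arms differ by G1A between Mir103-1 and Mir103-2 and by C16U between Mir103-2 and Mir107, and share the other seed. All 3 hairpins were listed at 0 in each library, so these data describe the host transcripts and say nothing of the microRNA levels.

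The promoters of Pank1 and Pank2, kinase genes with values of opposite sign in DKO1 against WT, are shown with that of Vnn3, the member with the largest fold change. The Pank1 call there ended in 12 of 14 refits that left out 1 library. Each run is the 250 bases before the RefSeq transcription start on GRCm38.p6, read along the gene's strand. Capitals mark CCAAT or its reverse complement ATTGG, and TATAAA on the gene's strand.
Pank1 (chr19:34879456-34879705, minus strand): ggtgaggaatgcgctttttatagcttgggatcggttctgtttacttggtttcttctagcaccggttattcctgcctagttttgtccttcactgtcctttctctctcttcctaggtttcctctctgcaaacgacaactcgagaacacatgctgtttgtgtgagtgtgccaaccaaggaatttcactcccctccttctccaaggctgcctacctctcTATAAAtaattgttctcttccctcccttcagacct
Pank2 (chr2:131262250-131262499, plus strand): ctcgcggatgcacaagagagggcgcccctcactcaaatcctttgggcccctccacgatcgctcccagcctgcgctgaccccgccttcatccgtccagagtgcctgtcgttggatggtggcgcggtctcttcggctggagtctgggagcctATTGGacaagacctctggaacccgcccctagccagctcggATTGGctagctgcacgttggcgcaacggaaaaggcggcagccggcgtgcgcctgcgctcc
Vnn3 (chr10:23851212-23851461, plus strand): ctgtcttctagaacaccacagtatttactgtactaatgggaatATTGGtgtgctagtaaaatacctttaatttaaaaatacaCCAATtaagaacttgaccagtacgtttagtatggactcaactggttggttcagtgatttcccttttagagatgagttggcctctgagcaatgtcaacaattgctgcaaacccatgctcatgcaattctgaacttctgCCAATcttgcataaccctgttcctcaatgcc
The Pank1 window has a TATAAA 35 bases before the start, a motif found in 7.59% of 32851 such windows, and 5 CG dinucleotides, against a median of 6 over all windows. The Pank2 window has 22 CG dinucleotides and 2 CCAAT motifs, 100 and 60 bases before the start, and no TATAAA. Those of Pank3 and Pank4, not shown, are like it in having a CCAAT motif and no TATAAA, with 17 and 11 CG dinucleotides. The Vnn3 window has 1 CG dinucleotide and 3 CCAAT motifs. Of all windows 2.79% have 3 or more and 33.8% at least 1. Windows were available for 8 of the 10 genes. Those of Vnn1 and Coasy were not available, so nothing is said here of motifs at these genes. AGGTCA repeated after 1 base, a letter form of the element that PPAR receptors bind, was in none of them in windows reaching 50 bases past the start, on either strand, and in 0.03957% of all. A single AGGTCA was in those of Ppcs and Ppcdc and in 16.3% of all, and CACGTG, the E-box, in none of the 8 and in 7.15% of all. These are matches of letters, which show neither binding nor its absence.

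**Figure D1:**
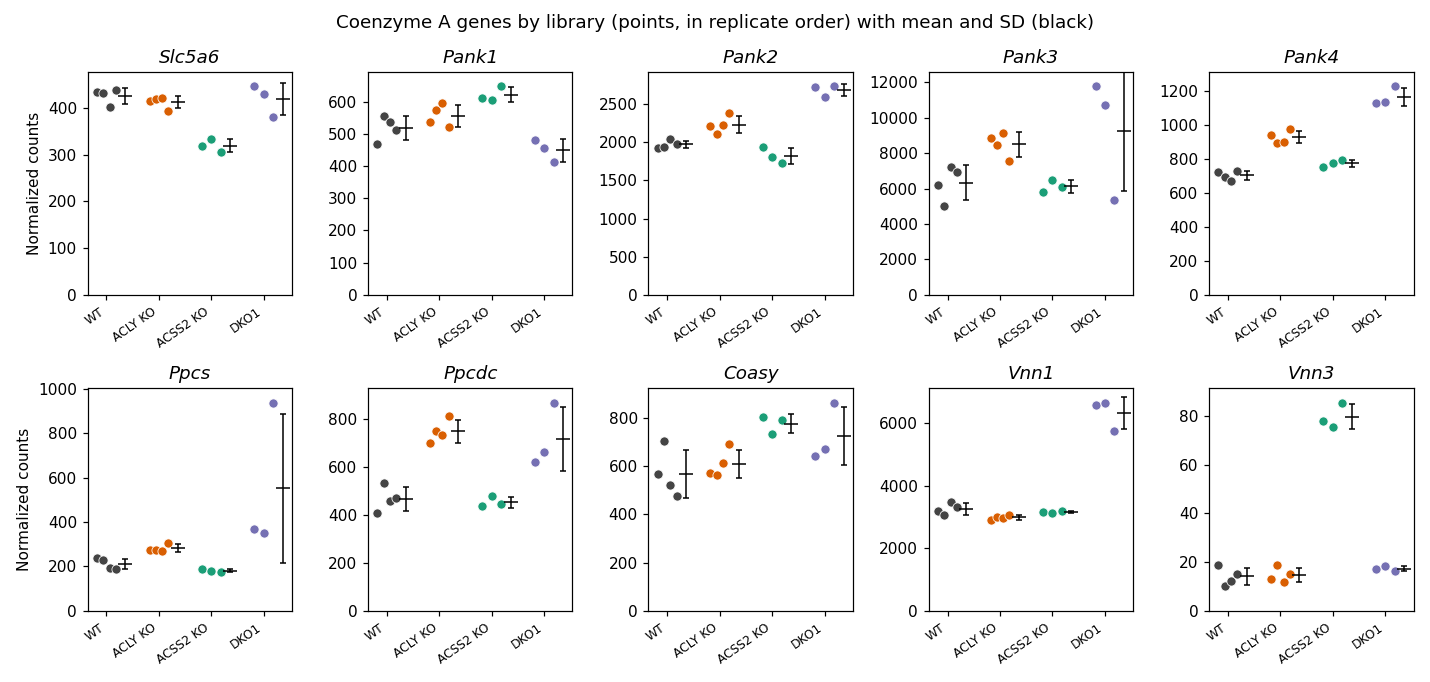
Normalized counts of the 10 genes in each of the 14 libraries, one panel per gene with its own axis from 0, points for libraries and black marks for the mean and SD of each genotype. The 3 DKO1 points stand above all others for Vnn1, the 3 ACSS2 KO points above all others for Vnn3, and DKO1 replicate 4 stands apart from the other DKO1 points for Pank3 and Ppcs.

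The widest relative gaps between the libraries of 1 genotype and all others were in the vanin pair, neighbours on chromosome 10 that moved in different genotypes. By fitted log2 fold change in DKO1 against WT, Ppcs (1.22) lay above Vnn1 (0.96). Vnn1, the membrane-anchored pantetheinase of liver and kidney epithelium and a known target of the fasting receptor PPARα, rose about 2-fold in DKO1. Vnn3, a close relative 24845 bases away, rose 5.44-fold in ACSS2 KO and was near the WT level in DKO1. Neither rise was called in any other genotype against WT.

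Vnn1 (GRCm38, chromosome 10, 23894688 to 23905343) had 3188, 3052, 3465 and 3327 normalized counts in the WT libraries and 2898, 3007, 2985 and 3055 in ACLY KO. It had 3171, 3135 and 3206 in ACSS2 KO and 6598, 6657 and 5754 in DKO1. The DKO1 libraries were all above the other 11, which together stayed between 2898 and 3465. The DKO1 mean was 6337 ± 505 (SD, n = 3), beside 3258 ± 178 (SD, n = 4) for WT. On the log2 scale DKO1 exceeded WT by 0.96 (95% interval 0.82 to 1.097, limma adjusted p = 7.2e-08), ACLY KO by 1.08 (adjusted p = 1.3e-07) and ACSS2 KO by 0.996 (adjusted p = 7.1e-08). Against WT, the single losses gave -0.12 in ACLY KO (adjusted p = 0.10) and -0.04 in ACSS2 KO (adjusted p = 0.74). Tested as an interaction, the DKO1 minus ACLY KO difference less the ACSS2 KO minus WT difference was 1.12 (adjusted p = 1.95e-06). The 16 other tested genes within 2 Mb of Vnn1 had a median of -0.07 for the same DKO1 contrast with WT.

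Vnn3 (chromosome 10, 23851462 to 23869843) was the lowest of the members, with 18.7, 10.4, 12.3 and 15.2 normalized counts in WT and 13.02, 18.8, 11.995 and 14.9 in ACLY KO. It had 78.1, 75.6 and 85.5 in ACSS2 KO and 17.3, 18.3 and 16.2 in DKO1. The lowest ACSS2 KO library thus stood at 75.6 and the highest of the other 11 at 18.8. Against WT the ACSS2 KO value was 2.44 on the log2 scale (95% interval 1.999 to 2.89, limma adjusted p = 2.5e-06), in log2(value + 1), which understates folds at such low levels. In DKO1 it was 0.30 against WT (adjusted p = 0.23) and -2.14 against ACSS2 KO (adjusted p = 3.0e-06). The interaction was -2.21 (adjusted p = 1.1e-04), opposite in sign to that of Vnn1. The 17 tested genes within 2 Mb had a median of -0.04 in ACSS2 KO against WT. In that contrast Vnn3 was the only member past the limits the study used for differential expression, an absolute log2 fold change over 1.5 with an adjusted p under 0.01, which 2.42% of tested genes passed. No stretch of 75 bases, the read length, is shared between Vnn1 and Vnn3 exons, so reads of one cannot match the other exactly.

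Per kilobase of exon, the scale on which genes can be compared, Vnn1 in WT held 1349 normalized counts per kb and Vnn3 7.81. In ACSS2 KO Vnn3 reached 44.0 per kb, still far under the 1312 per kb of Vnn1 in the same cells. Vnn1 was the highest member per kb in each genotype and Pank3 the next, and their libraries overlapped in ACLY KO, where the means were 1236 and 1152, but in no other genotype. In WT the order below them was Pank2 (462.6 per kb), Pank4 (259), Coasy (232), Ppcs (147), Slc5a6 (112), Ppcdc (103), Pank1 (67.8) and Vnn3. Neighbours whose WT ranges overlapped were Pank4 with Coasy and Slc5a6 with Ppcdc, so their order there is not settled.

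Counted over all members, 3 of 10 were called in ACLY KO against WT (limma, adjusted p under 0.05), all higher, where 48.5% of all tested genes were called and 23.8% were higher. In ACSS2 KO against WT, 4 were called, 3 higher and 1 lower, where 26.0% of genes were called. In DKO1 against WT, 7 were called, 6 higher and 1 lower, against 56.0% of genes. The ACLY KO, ACSS2 KO and DKO1 comparisons share the WT libraries. In DKO1 against ACLY KO, the contrast of ACSS2 loss without ACLY, 5 were called, 4 higher and 1 lower, against 27.9%, and in DKO1 against ACSS2 KO, 8 were called, 6 higher and 2 lower, against 53.7%. The interaction was called for 5, against 27.1%. In ACLY KO against ACSS2 KO, a comparison added after the data were seen, 6 were called against 48.3%. Calls were so common over all genes that these member counts set the CoA genes apart little. The 10 members had a median log2 fold change against WT of 0.15 for ACLY KO, -0.04 for ACSS2 KO and 0.46 for DKO1, while that of all tested genes was within 0.01 of 0.

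**Figure D2:**
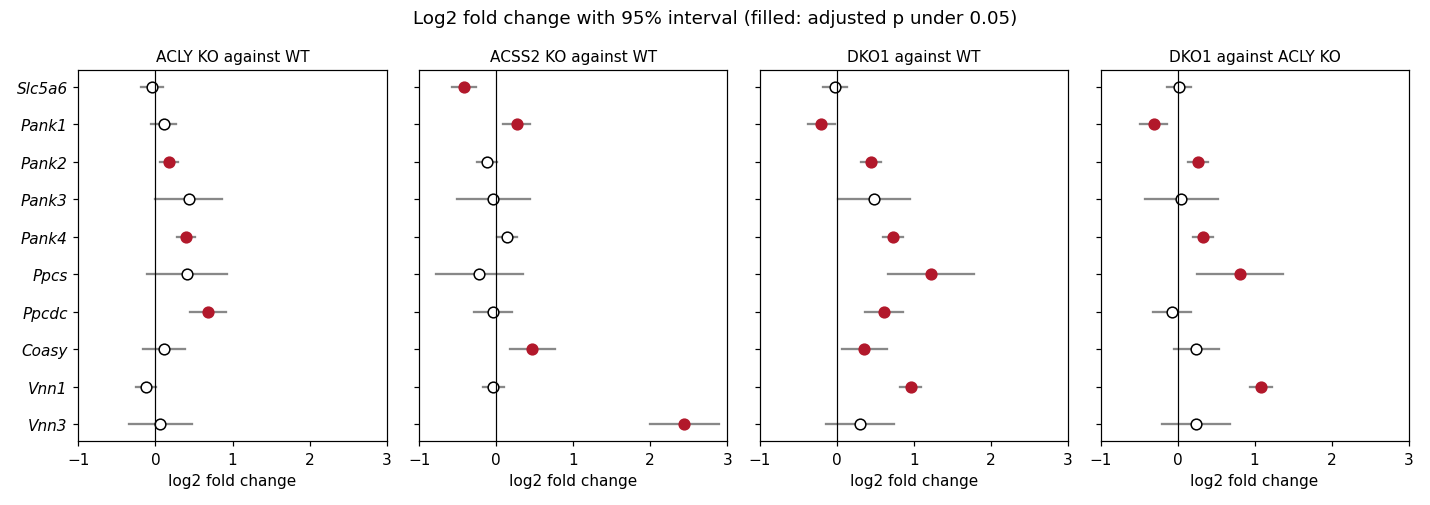
Log2 fold change of each gene with its 95% interval in the comparisons fitted by limma, filled symbols where the adjusted p was under 0.05. Vnn3 in ACSS2 KO against WT lies at 2.44 and Vnn1 in DKO1 against WT at 0.96, while Slc5a6 is below 0 and called only in ACSS2 KO.

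Uptake came first in the pathway and moved in 1 genotype. Slc5a6 (chromosome 5, 31036036 to 31048924), the sodium-dependent carrier of pantothenate and biotin, had 433, 432, 401 and 438 normalized counts in WT and 415, 418, 422 and 393 in ACLY KO. It had 317, 334 and 306 in ACSS2 KO and 446, 429.6 and 381 in DKO1. All ACSS2 KO libraries lay under the lowest of the other 11, 381. Against WT the log2 difference in ACSS2 KO was -0.42 (95% interval -0.57 to -0.26, limma adjusted p = 7.3e-04). In DKO1 it was -0.03 against WT (adjusted p = 0.77) with an interval of -0.18 to 0.13, and 0.39 against ACSS2 KO (adjusted p = 7.3e-04). The interaction was 0.44 (adjusted p = 0.0057) and was no longer called with libraries scaled to equal totals. Of the 75-base stretches in Slc5a6 exons, 7.45% also occur in Gm6157, and Atraid overlaps the gene on the other strand, so part of the signal could be split or shared where counting allowed it.

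The kinase genes did not move as one family. Pank2 and Pank4 rose in both lines without ACLY and highest in DKO1. Pank1 was lower in DKO1 and higher in ACSS2 KO, by calls that ended with the length trend removed. Pank3 depended on 1 library. Pank3 and Pank2 supplied most of the active kinase message. Of the summed normalized counts per kb of Pank1, Pank2 and Pank3, Pank3 held 61.6% ± 3.59 (SD, n = 4) and Pank2 33.5% ± 2.90 in WT. Pank1, whose protein is the liver's dominant kinase in the intact animal, held 4.93% ± 0.73 in WT. Its share was 4.17% ± 0.19 (n = 4) in ACLY KO cells, 6.08% ± 0.35 (n = 3) in those without ACSS2 and 3.12% ± 0.59 (n = 3) in DKO1.

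Pank1 (chromosome 19, 34806940 to 34879455) had 468, 557, 536 and 513 normalized counts in WT and 537, 574, 597 and 522 in ACLY KO. It had 612, 605 and 648 in ACSS2 KO, all above every other library, and 483, 456 and 412 in DKO1, where 2 of 3 were below every library of the other genotypes. In log2 terms ACSS2 KO against WT was 0.26 (limma adjusted p = 0.028), DKO1 against WT was -0.20 (adjusted p = 0.046) and DKO1 against ACLY KO was -0.31 (adjusted p = 0.012). The interaction was -0.57 (adjusted p = 0.0023). The call in DKO1 against WT ended when any library was left out except WT replicate 1 or DKO1 replicate 1, and without DKO1 replicate 4 the value was -0.14 (adjusted p = 0.14). With only the groups compared fitted, the calls against WT (adjusted p = 0.16) and against ACLY KO (adjusted p = 0.059) both ended. The call in ACSS2 KO against WT ended without WT replicate 1 or 4 or any of the ACSS2 KO libraries, with values from 0.22 to 0.28. After removal of the length trend no Pank1 call was left: the interaction was -0.29 (adjusted p = 0.21), and DKO1 was at -0.14 against ACLY KO (adjusted p = 0.39) and -0.03 against WT (adjusted p = 0.87). The 15 other genes within 2 Mb of Pank1 had a median of -0.44 in DKO1 against WT, -0.39 in ACLY KO and 0.33 in ACSS2 KO, beside -0.20, 0.11 and 0.26 for Pank1. Over the 453 tested genes of chromosome 19 the medians in these contrasts were -0.54, -0.38 and -0.04. Whether the lines differ in the dosage of this chromosome was not tested.

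Pank2 (chromosome 2, 131262495 to 131299188), the form sent to mitochondria in human cells and mutated in a neurodegenerative disease with brain iron accumulation, had 1929, 1942, 2042 and 1981 normalized counts in WT and 2215, 2105, 2231 and 2388 in ACLY KO. It had 1939.8, 1803 and 1735 in ACSS2 KO and 2724, 2596 and 2735 in DKO1. ACLY KO lay wholly above WT, and DKO1 wholly above ACLY KO, while ACSS2 KO overlapped WT. ACLY KO exceeded WT by 0.18 on the log2 scale (limma adjusted p = 0.017), DKO1 exceeded WT by 0.44 (adjusted p = 3.5e-05) and DKO1 exceeded ACLY KO by 0.27 (adjusted p = 0.0053). The ACSS2 KO difference from WT was -0.11 (adjusted p = 0.20), and the interaction was 0.38 (adjusted p = 0.0050), or 0.23 and not called with libraries scaled to equal totals. The ACLY KO call ended without ACLY KO replicate 4, at 0.15 (adjusted p = 0.062). Rnf24 overlaps the end of the gene on the other strand.

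Pank4 (chromosome 4, 154964123 to 154980938), whose kinase part is inactive and whose phosphatase part acts on phosphopantetheine and its damaged forms, had 726, 693, 670.2 and 728 normalized counts in WT and 939.8, 897, 904 and 975 in ACLY KO. It had 756, 776 and 797 in ACSS2 KO and 1129, 1139.5 and 1229 in DKO1. The 4 genotypes did not overlap, in the order WT, ACSS2 KO, ACLY KO, DKO1. Differences from WT on the log2 scale were 0.40 for ACLY KO (limma adjusted p = 4.6e-05), 0.14 for ACSS2 KO (adjusted p = 0.10) and 0.73 for DKO1 (adjusted p = 3.9e-07). DKO1 against ACLY KO was 0.33 (adjusted p = 0.0012), and the interaction was 0.19 (adjusted p = 0.12).

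Genes around Pank4 and Pank2 shifted alongside them. The 46 other tested genes within 2 Mb of Pank4 had a median of 0.62 (log2) in DKO1 against WT, beside 0.73 for Pank4, and 0.40 in DKO1 against ACLY KO, beside 0.33. The 47 genes around Pank2 had a median of 0.43 in DKO1 against WT, beside 0.44 for Pank2, and 0.29 in ACLY KO, beside 0.18. Around Pank4 the ACLY KO median was 0.18, under the 0.40 of the gene itself. For Vnn1, Ppcs and Ppcdc the neighbours did not share the shift: their medians in DKO1 against WT were -0.07, -0.20 and 0.03. Whether the lines differ in the dosage of these regions was not tested.

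**Figure D3:**
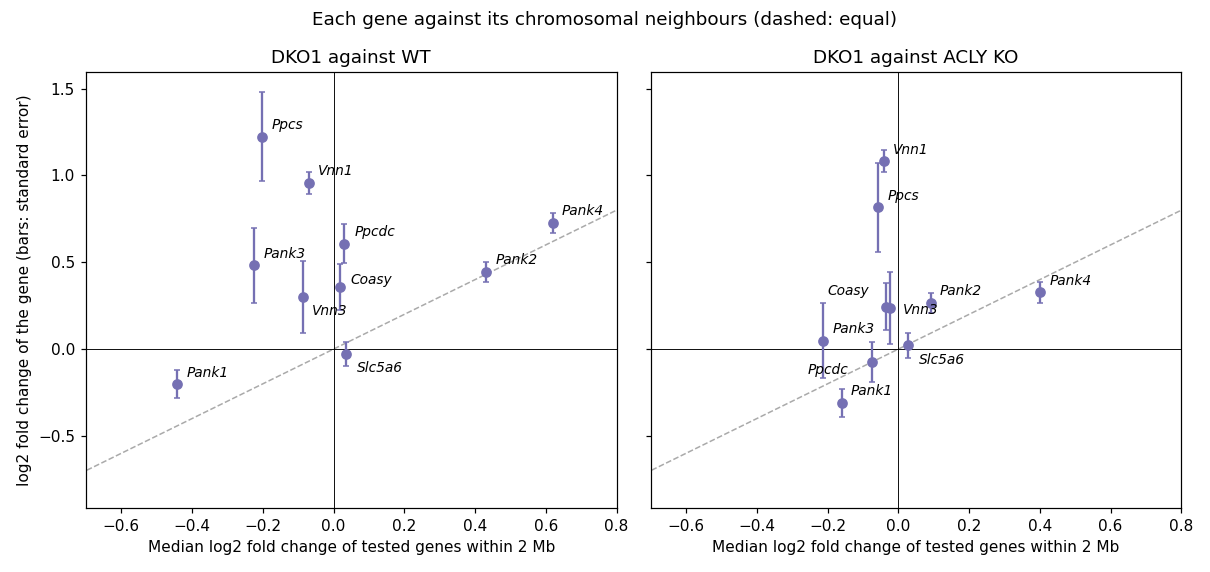
Log2 fold change of each gene (vertical axis) against the median log2 fold change of the other tested genes within 2 Mb (horizontal axis), in DKO1 against WT and in DKO1 against ACLY KO, with the standard error as bars and the line of equality dashed. Pank4 and Pank2 lie near the line in DKO1 against WT (0.73 beside 0.62, and 0.44 beside 0.43), whereas Vnn1 and Ppcs lie well above it.

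Pank3 (chromosome 11, 35769484 to 35791285) was the most abundant member by normalized counts, with 6174, 5033, 7205 and 6942 in WT and 8831, 8445, 9163 and 7545 in ACLY KO. It had 5775, 6477 and 6096 in ACSS2 KO and 11774, 10703 and 5348 in DKO1. DKO1 replicates 1 and 3 were above all other libraries, and DKO1 replicate 4 was below all but WT replicate 2. No Pank3 difference against WT was called: the log2 fold change was 0.43 in ACLY KO (limma adjusted p = 0.096), where the groups did not overlap, and 0.48 in DKO1 (adjusted p = 0.077). Without DKO1 replicate 4 both were called, at 0.43 (adjusted p = 0.0022) and 0.84 (adjusted p = 6.1e-05), and DKO1 against ACLY KO was 0.41 (adjusted p = 0.023). Removing the length trend from all libraries gave 0.45 (adjusted p = 4.6e-04) in ACLY KO and 0.65 (adjusted p = 2.8e-05) in DKO1.

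The next enzymes differed in how far they moved with ACLY. Ppcs (chromosome 4, 119418530 to 119422420) joins cysteine to phosphopantothenate. It had 236, 227, 194 and 189.8 normalized counts in WT and 275, 273, 267.5 and 307 in ACLY KO. It had 189.7, 181 and 174 in ACSS2 KO and 368, 349.5 and 937 in DKO1. Every ACLY KO library was above every WT library and every DKO1 library above those, and the 937 of DKO1 replicate 4 stood far above the other DKO1 values. Fitted log2 fold changes were 1.22 in DKO1 against WT (limma adjusted p = 0.0013), 0.82 in DKO1 against ACLY KO (adjusted p = 0.032) and 0.41 in ACLY KO against WT (adjusted p = 0.18). Without DKO1 replicate 4 these became 0.76 (adjusted p = 2.6e-05), 0.35 (adjusted p = 0.017) and 0.41 (adjusted p = 8.1e-04), all called. The DKO1 against ACLY KO call ended when ACLY KO replicate 1, 2 or 3 was left out, at 0.79 to 0.81. It also ended when only the groups compared were fitted, at 0.82 (adjusted p = 0.14).

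**Figure D4:**
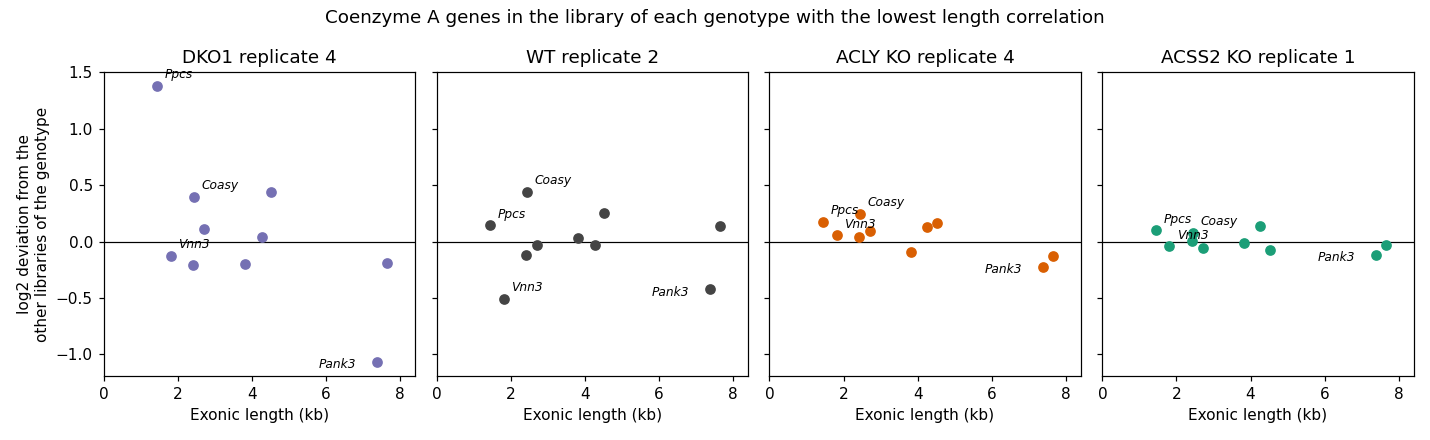
Deviation of each gene in the library with the strongest fall with length of each genotype from the other libraries of that genotype (log2, vertical axis) against exonic length in kb. In DKO1 replicate 4 Ppcs lies at 1.38 and Pank3 at -1.07, while the members of the other 3 libraries stay between -0.51 and 0.44.

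Ppcs has 1443 exonic bases, the fewest of the members, and Pank3 has 7376. In DKO1 replicate 4 they deviated from the mean of the other DKO1 libraries by 1.38 and -1.07 on the log2 scale, the highest and the lowest of the 10. Over all 10 members the rank correlation of that deviation with length was -0.35, across genes that share the library, and its part in the Ppcs and Pank3 results beyond the values given was not tested.

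Ppcdc (chromosome 9, 57385095 to 57440124) removes the carboxyl group that PPCS left, giving phosphopantetheine. It had 409, 531, 458 and 469.8 normalized counts in WT and 698, 748, 734 and 814 in ACLY KO. It had 437, 479 and 444 in ACSS2 KO and 622, 662 and 868 in DKO1. All 7 libraries without ACLY lay above all 7 with it, and within each set the groups overlapped. Relative to WT, ACLY KO was higher by 0.68 on the log2 scale (limma adjusted p = 1.3e-04) and DKO1 by 0.61 (adjusted p = 5.8e-04). The value was -0.04 for ACSS2 KO against WT (adjusted p = 0.86) and -0.08 in DKO1 against ACLY KO (adjusted p = 0.65, interval -0.32 to 0.17). Of its 75-base stretches 4.75% recur in other genes.

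Coasy (chromosome 11, 101082565 to 101086619) carries out the last steps of the pathway. It had 567, 705, 520.2 and 475 normalized counts in WT and 569.5, 565, 611 and 689.7 in ACLY KO. It had 802, 732 and 792.5 in ACSS2 KO and 643, 669 and 862 in DKO1. ACSS2 KO lay above all WT and ACLY KO libraries, and DKO1 overlapped every other genotype. Log2 fold changes were 0.47 in ACSS2 KO against WT (limma adjusted p = 0.021), 0.36 in DKO1 against WT (adjusted p = 0.038) and 0.11 in ACLY KO against WT (adjusted p = 0.49). The DKO1 call ended without DKO1 replicate 4, at 0.23 (adjusted p = 0.14), or without WT replicate 1, 3 or 4, at 0.28 to 0.36. It also ended when only the groups compared were fitted, at 0.36 (adjusted p = 0.13). The ACSS2 KO call ended without WT replicate 3 or 4 or ACSS2 KO replicate 1 or 4, at 0.39 to 0.45, with adjusted p between 0.055 and 0.075, and with the replicate number as a block, at 0.44 (adjusted p = 0.059). Coasy lies 0.555 Mb from Acly on chromosome 11, and the 90 other genes within 2 Mb had a median of 0.22 in ACSS2 KO against WT.

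Other genes that handle CoA were read from a list of 13, of which 11 were tested. In ACLY KO against WT 6 of them were called (54.5%, where 48.5% of all tested genes were), 5 higher and 1 lower, with a median log2 fold change of 0.38 beside -0.01 over all genes. In ACSS2 KO 1 was called (9.09%, against 26.0% of all), and in DKO1 7 were (63.6%, against 56.0%), 5 higher and 2 lower, with a median of 0.31. DKO1 against ACLY KO had 4 calls (36.4%, against 27.9%), 1 higher and 3 lower. Slc25a42, the mitochondrial carrier that brings CoA into the matrix, had 79.2 to 109.9 normalized counts in DKO1 and 32.6 to 46.1 in WT, with ACLY KO at 48.9 to 61.4 and ACSS2 KO at 37.4 to 48.6. Each DKO1 library was above every other library. Against WT it rose by 1.28 in DKO1 (limma adjusted p = 1.8e-05) and 0.45 in ACLY KO (adjusted p = 0.023) on the log2 scale, and ACSS2 KO had 0.17 (adjusted p = 0.49). The peroxisomal CoA hydrolases of the Nudix family went apart: Nudt7 fell by 0.82 in DKO1 against WT on the log2 scale (adjusted p = 7.7e-04) and Nudt19 rose by 1.17 (adjusted p = 6.5e-04). In DKO1 replicate 4 Nudt19 had 1598 normalized counts, the highest value, and the lowest DKO1 value of 769.8 lay within the ACLY KO range of 609 to 806. Dcakd, named for its likeness to dephospho-CoA kinase, rose in ACLY KO (0.63, adjusted p = 2.0e-05) and ACSS2 KO (0.33, adjusted p = 0.011), and had 0.18 in DKO1 (adjusted p = 0.093).

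**Figure D5:**
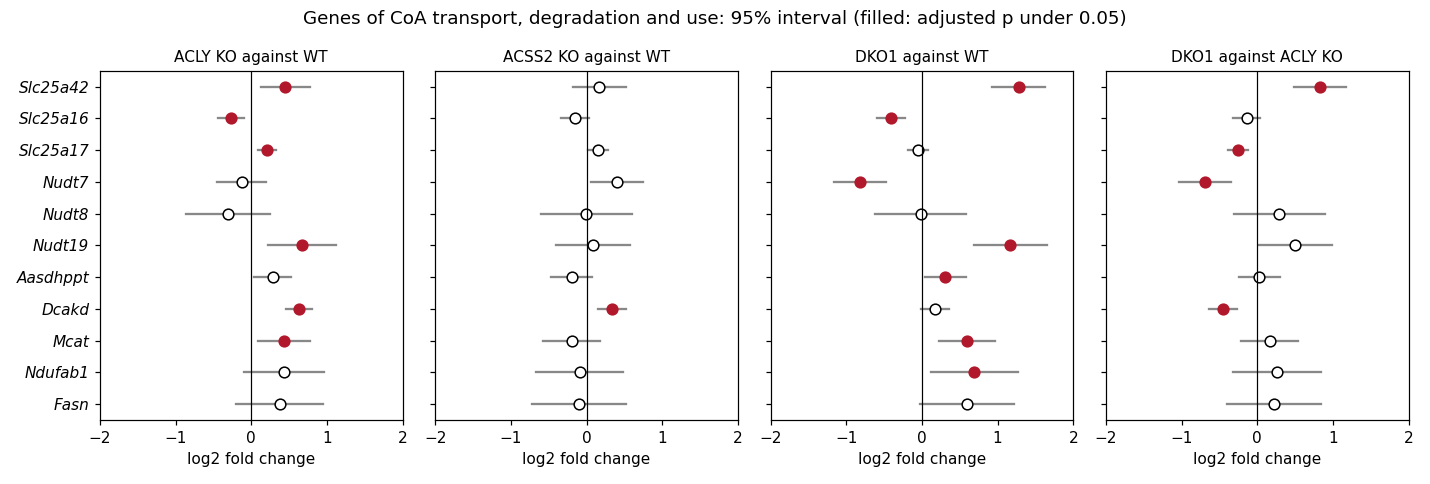
Log2 fold change of the 11 tested genes of the CoA handling list in each knockout line against WT and in DKO1 against ACLY KO, with 95% intervals and filled points where the adjusted p was under 0.05. Slc25a42 and Nudt19 lie highest in DKO1 against WT, at 1.28 and 1.17, and Nudt7 lowest, at -0.82.

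Genes of cysteine, cysteamine and taurine metabolism, which include the route of vanin-released cysteamine, were read from a list of 11, of which 7 were tested. Against WT, 6 of the 7 were called in ACLY KO (4 higher), where 48.5% of all tested genes were. In ACSS2 KO 5 were called (4 higher), against 26.0% of all, and in DKO1 6 (3 higher), against 56.0%. The medians were 0.50, 0.43 and -0.15. Ado, the cysteamine dioxygenase gene, was lower in ACLY KO (-0.43, limma adjusted p = 2.3e-04) and DKO1 (-0.33, adjusted p = 0.0030). In ACSS2 KO it was at -0.21 (adjusted p = 0.059). Csad, which makes hypotaurine from cysteine sulfinate, rose in all 3, by 1.46 (limma adjusted p = 1.9e-07), 0.43 (adjusted p = 0.018) and 1.32 (adjusted p = 1.0e-06) on the log2 scale. Cth and Cbs, the enzymes that turn homocysteine into cysteine, were highest in ACSS2 KO: Cbs was at 1.58 there (adjusted p = 8.4e-06) and at 0.03 and -0.15 in ACLY KO and DKO1 (adjusted p = 0.87 and 0.43). For Cth, ACLY KO was at 0.63 (adjusted p = 0.011), ACSS2 KO at 1.37 (adjusted p = 2.0e-04) and DKO1 at -1.16 (adjusted p = 2.4e-04), so that DKO1 lay below WT. Gclm, a subunit of the enzyme that starts glutathione from cysteine, rose in ACLY KO (0.64, adjusted p = 3.0e-07) and DKO1 (0.49, adjusted p = 7.1e-06) and fell by 0.43 in ACSS2 KO (adjusted p = 7.2e-05).

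Because Vnn1 is known as a PPARα target, 16 genes of the fasting response were read beside it, of which 10 were tested. Against WT, 6 of the 10 were called in ACLY KO (2 higher, 4 lower), where 48.5% of all tested genes were. In ACSS2 KO 5 were called (3 higher, 2 lower), against 26.0% of all, and in DKO1 7 (4 higher, 3 lower), against 56.0%. DKO1 against ACLY KO had 5 calls, 4 higher and 1 lower, against 27.9%, with a median of 0.17. Ppara, the receptor gene itself, named after its values were seen, had 15.01 to 30.3 normalized counts in WT, 14.98 to 22.6 in ACLY KO, 33.5 to 50.05 in ACSS2 KO and 32.5 to 78.5 in DKO1. It rose by 1.12 in DKO1 against WT (limma adjusted p = 0.0062) and by 1.37 against ACLY KO (adjusted p = 0.0043) on the log2 scale, contrasts in which Vnn1 rose. Ppara was not called in DKO1 against ACSS2 KO (0.37, adjusted p = 0.34), where Vnn1 rose by 0.996. In ACSS2 KO against WT Ppara had 0.75 (adjusted p = 0.086). Angptl4, a secreted inhibitor of lipoprotein lipase, fell in all 3 genotypes against WT, by 2.33, 1.90 and 2.23 on the log2 scale (limma adjusted p of 1.3e-08, 8.5e-07 and 3.9e-08), unlike Vnn1. Acadm, the medium-chain acyl-CoA dehydrogenase, rose in ACLY KO (0.59, adjusted p = 3.4e-04) and further in DKO1 (1.14, adjusted p = 2.1e-06). The acyl-CoA thioesterases Acot1 and Acot2, which release free CoA, had their largest values in ACSS2 KO, at 0.998 (adjusted p = 9.1e-05) and 0.83 (adjusted p = 1.0e-04). The classical targets Cyp4a10 and Cyp4a14 were at or near 0 in every library.

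The genes whose log2 values followed each member most closely over the 14 libraries, among 11037 genes whose mean was 50 or more, are given as a description, since the libraries share their genotypes. Vnn1 was closest to Cenpi, a centromere protein gene (Pearson's r = 0.9747), and Tat, tyrosine aminotransferase (0.9709). Pank4 was closest to Aldh4a1 of proline breakdown (0.9861), and Pank2 to Acat2, the cytosolic acetoacetyl-CoA thiolase of sterol synthesis (0.9718). Pank3 was closest to Ralgps1 (0.9886), Ppcs to Ddrgk1 (0.9809), Ppcdc to Dpm1 (0.9737), Coasy to Gadd45a (0.9714), Slc5a6 to Ssx2ip (0.9635) and Pank1 to Mb21d2 (0.9156). No member was among the 3 genes closest to another member.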

How the data were processed

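Poly(A) RNA from 14 libraries was made into stranded libraries and sequenced by the authors as 75-base single-end reads, mapped with STAR to GRCm38 (mm10 in the submitters' notes, which name DESeq2 1.0.1). How reads were assigned to genes is not given in the sources used here. The deposited signal values are normalized counts: the authors scaled each gene's count by factors from DESeq. They are not whole reads: 15.6 to 40.3% of low values lay within 0.01 of a whole multiple of what 1 read was taken to be worth. No counting interval was therefore computed.

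Groups came from the sample labels. Each gene was fitted in R 4.3.3 with limma 3.58.1, with an intensity trend, on log2(value + 1), with 1 coefficient per genotype and a spread shared by all 14 libraries. Tests were two-sided, and p-values were adjusted by Benjamini-Hochberg over the 12711 genes whose mean reached 10. Exon lengths and positions came from the GENCODE annotation of GRCm38, and promoters and microRNAs from RefSeq. The interaction is the DKO1 minus ACLY KO difference less the ACSS2 KO minus WT difference.

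The members and lists were chosen with earlier results of these data known. Named genes are all members, the targeted genes, up to 4 genes of each list by smallest adjusted p-value, and the closest patterns. Markers, neighbours, Ppara, Ado and genes at 0 were named after their values were seen. The fit was tested on simulated data with 200 changed genes. Alternatives were the added constant (0.5, 10), other filters, only the groups compared, the replicate number as a block and each library left out. Equal totals, quantile normalization and a length spline with 5 degrees of freedom had been tried on these data earlier, and leaving out 4 libraries together was added after the data were seen.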

Additional observations from a re-analysis of the deposited data

Results flagged for a closer look

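Limma's interaction term was called for 5 of the 10 genes, where 27.1% of all tested genes were called. It compares the DKO1 minus ACLY KO difference with the ACSS2 KO minus WT difference. Each of ACSS2 KO and DKO1 is a single-cell clone, so ACSS2 loss and clone cannot be told apart. On the log2 scale the differences were 1.12 for Vnn1 (adjusted p = 1.95e-06), -2.21 for Vnn3 (adjusted p = 1.1e-04), -0.57 for Pank1 (adjusted p = 0.0023), 0.38 for Pank2 (adjusted p = 0.0050) and 0.44 for Slc5a6 (adjusted p = 0.0057). The Pank1 call ended with the length trend removed (-0.29, adjusted p = 0.21). With equal totals those of Pank2 (0.23, adjusted p = 0.10) and Slc5a6 (0.29, adjusted p = 0.12) ended. The Ppcs interaction was 1.03 and not called (adjusted p = 0.052). It was called without DKO1 replicate 1 (1.25, adjusted p = 0.023), 3 (1.28, adjusted p = 0.019) or 4 (0.57, adjusted p = 0.0056). It was also called with quantile normalization (1.18, adjusted p = 0.033) and with the length trend removed (0.80, adjusted p = 0.0062).

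Slc5a6 in WT replicate 3, at 401 normalized counts, was far from the other WT libraries, which lay between 432 and 438. The gap was 0.844 of the group's range, over Dixon's 95% critical value for 4 samples. It was the only such library in 20 tests, and chance gives about 1 in 20.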

How the results depend on the processing

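The log2 values with another constant (0.5 or 10) kept every direction and call of the members in all 7 comparisons. Equal totals moved the median of all genes to 0.10 in ACLY KO against WT, 0.11 in ACSS2 KO against WT and -0.16 for the interaction. Same-numbered libraries did not pair: 5 of 18 pairs had a correlation of deviations over 0.1. With the replicate block, 63 of 70 values kept direction and call, 5 members were called in DKO1 against WT in place of 7, and DKO1 against WT was -0.19 for Pank1 (adjusted p = 0.086) and 0.38 for Coasy (adjusted p = 0.056), and Coasy in ACSS2 KO against WT was 0.44 (adjusted p = 0.059), none of them called. The cause of the changes was not tested.

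Member counts moved as follows. In ACLY KO against WT, 5 were called with only the compared groups, 5 with the length trend removed, and 7 without the 4 libraries with that trend, where calls over all genes went from 6167 to 7204, 7641 and 8692. Leaving out 1 library gave 2 to 6, and 5542 to 7821 over all genes. In ACSS2 KO against WT leaving out 1 library gave 2 to 5, and 2347 to 5086 over all genes. In DKO1 against ACLY KO, 3 were called with only the compared groups (2168 of all genes, from 3550; 5702 without the 4 libraries). For the interaction, 3 were called with equal totals and 8 without the 4 libraries (3460 and 5549 of all genes, from 3442).

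Sign changes were in values that were not called under the reported settings; the Pank3 interaction was called with the length trend removed (0.36, adjusted p = 0.042) and without the 4 libraries (0.46, adjusted p = 8.65e-04), and Pank3 in DKO1 against ACLY KO without DKO1 replicate 4 (0.41). With equal totals these were 0.063 for Slc5a6 in ACLY KO, 0.067, 0.068 and 0.069 for Pank3, Ppcdc and Vnn1 in ACSS2 KO and 0.039 for Slc5a6 in DKO1, all against WT, -0.024 for Slc5a6 in DKO1 against ACLY KO and -0.063 for the Pank3 interaction. With quantile normalization they were -0.15 for Vnn3 in ACLY KO, 0.087 for Pank3 and 0.026 for Vnn1 in ACSS2 KO, -0.020 for Slc5a6 in DKO1 against ACLY KO, and -0.012 and 0.040 for the Pank3 and Ppcdc interactions. With the replicate block they were 0.031 for Pank3 in ACSS2 KO, and -0.016 and 0.015 for those interactions. With the length trend removed they were 0.0077 for Slc5a6 in DKO1 and 0.11 for the Ppcdc interaction. Without the 4 libraries they were -0.077 for Vnn3 in ACLY KO, 0.052 for Ppcdc in ACSS2 KO and 0.047 for Slc5a6 in DKO1.

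Leaving out 1 library gave -0.063 to 0.20 for Vnn3 in ACLY KO, -0.15 to 0.027 for Pank3 and -0.10 to 0.026 for Ppcdc in ACSS2 KO, and -0.073 to 0.040 for Slc5a6 in DKO1, all against WT. In DKO1 against ACLY KO it gave -0.16 to 0.41 for Pank3, -0.22 to 0.019 for Ppcdc and -0.025 to 0.088 for Slc5a6. The interaction ran from -0.12 to 0.45 for Pank3 and -0.18 to 0.0575 for Ppcdc.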
